A study of Mus musculus with 36 samples.

Results

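The genes described here handle sugar on its way into the hepatocyte, and they were followed through livers with and without the insulin receptor there. They are Slc2a2, Hk1, Hk2, Gckr, Khk, Pfkl, Pfkfb1 and Mlxipl, taken by name from the array annotation with every probe that carries the name. They account for 8 of the 23054 genes tested and for 18 of the 56605 probes on the array, of which 16 were bright enough to be fitted. The gene of glucokinase itself was not analysed here.

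Livers came from 36 male C57BL/6J mice aged 11 weeks, 1 array per mouse, in 6 groups of 6. Knockout mice (IRLKO) had LoxP sites around exon 4 of Insr, the insulin receptor gene, and a tamoxifen-inducible Cre recombinase driven by the transthyretin promoter (TTR-CreTam), which acts in hepatocytes and leaves Insr in the other liver cells. Control mice (IRLWT) had a working receptor, and whether they carried the Cre or were given tamoxifen is not stated in the labels, nor is the time of the tamoxifen. Livers of both genotypes were taken at Zeitgeber time (ZT) 8, 12 and 16, in hours after lights-on, with lights off at ZT12 and standard chow always available. The RNA was extracted from whole liver, so fewer cells of a type and less RNA per cell cannot be told apart in any value below. Levels are log2 signal after subtraction of each array's own 75th percentile signal, so that a probe at 0 is as bright as that percentile. Different probes bind with different efficiency, so for single genes only differences of 1 probe between groups are compared, never the level of 1 probe with another's. Marker sums given below add probes of unlike brightness, so the brightest weigh most. They too are compared only between arrays or groups.

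Glucose and fructose enter the hepatocyte through GLUT2, the product of Slc2a2, and are trapped inside by phosphorylation. Glucose is phosphorylated by hexokinases, and in the adult hepatocyte mainly by glucokinase, which the glucokinase regulatory protein encoded by Gckr binds and holds in the nucleus when sugar is scarce. Fructose bypasses that step, since ketohexokinase, encoded by Khk, phosphorylates it directly. Phosphofructokinase (Pfkl is its liver subunit) commits the sugar to glycolysis under the control of fructose 2,6-bisphosphate, which the bifunctional enzyme encoded by Pfkfb1 makes and removes. ChREBP, encoded by Mlxipl, is a transcription factor that responds to sugar phosphates and pairs with Mlx at promoters of glycolytic and lipogenic genes. Insulin is best known in this tissue for raising glucokinase and the lipogenic genes and for lowering genes of glucose output.

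In the knockout livers Khk was lower at all 3 times, by 1.94-fold to 2.59-fold, and Gckr was lower at all 3 times, by 1.20-fold to 1.49-fold. Slc2a2 did not differ at ZT8 and was 1.46-fold lower at ZT12 and 1.72-fold lower at ZT16. Pfkfb1 was 1.40-fold lower at ZT12 and 1.71-fold lower at ZT16. Hk2 was higher at all 3 times, by 1.59-fold to 1.80-fold. Some of these calls rest on single arrays. The ZT8 calls of Gckr and Hk2 ended without knockout ZT8 replicate 3, and the Gckr call at ZT16 without control ZT16 replicate 6. The Pfkfb1 call at ZT12 ended without any of 4 single arrays and in 7 of 13 other settings, and was not made on the second probe. For Hk1, Pfkl and Mlxipl the brightest probe did not pass the threshold at any time. Another probe of each did, higher at all 3 times for Hk1, higher at ZT8 and ZT12 for Pfkl and lower at ZT8 and ZT16 for Mlxipl.

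The promoter letters of Khk, Slc2a2 and Gckr are shown so that the genes can be compared at their start sites, and no result rests on them. They are the 250 bases before the start site, from the RefSeq promoter table on build GRCm38.p6, in lower case. These 3 genes were lowered at 2 or more times with no other probe in disagreement. Slc2a2 and Gckr have only 1 probe each, so among the 3 a second probe could disagree for Khk alone. Capitals mark a match to the E-box letters CACGTG.
Khk promoter, chr5:30921309-30921558, plus strand: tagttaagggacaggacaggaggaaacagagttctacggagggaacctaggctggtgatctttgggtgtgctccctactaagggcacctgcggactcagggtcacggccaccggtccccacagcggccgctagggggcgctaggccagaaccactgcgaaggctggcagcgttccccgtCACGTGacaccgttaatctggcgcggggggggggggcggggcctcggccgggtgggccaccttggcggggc
Slc2a2 promoter, chr3:28697653-28697902, plus strand: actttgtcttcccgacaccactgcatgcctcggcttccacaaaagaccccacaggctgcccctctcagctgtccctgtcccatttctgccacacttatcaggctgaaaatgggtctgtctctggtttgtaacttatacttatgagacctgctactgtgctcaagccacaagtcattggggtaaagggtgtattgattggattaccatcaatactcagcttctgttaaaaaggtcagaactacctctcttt
Gckr promoter, chr5:31297313-31297562, plus strand: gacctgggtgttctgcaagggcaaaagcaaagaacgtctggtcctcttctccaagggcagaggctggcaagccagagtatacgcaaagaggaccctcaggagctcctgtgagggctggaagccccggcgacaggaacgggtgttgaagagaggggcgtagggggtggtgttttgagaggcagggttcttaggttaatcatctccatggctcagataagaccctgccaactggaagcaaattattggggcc
The E-box of Khk lies 71 to 66 bases before the start. Neither of the other promoters holds the letters CACGTG. Among 32851 promoter windows of the same length, 6.02% hold CACGTG on either strand, a palindrome that reads the same on both. The other letters searched on both strands were the forkhead motif GTAAACA, held by 3.17% of windows, the D-box TTATGTAA, held by 0.819%, and the sterol response element TCACNCCAC, held by 1.05%. Of the 13 start sites that the table gives for the 8 genes, Mlxipl had the only other matches, with a sterol response element 136 to 128 bases before its first start and an E-box 98 to 93 bases before its second. A match is a description of letters, and binding was not measured.

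Next are array probes of 60 bases for Slc2a2, Khk and Pfkfb1, in lower case throughout because no part of them is singled out. The Slc2a2 probe is the only one of its gene. Those of Khk and Pfkfb1 are the second probes, and the gene values come from the brighter A_52_P72434 and A_55_P2002893.
Slc2a2 probe A_52_P409988: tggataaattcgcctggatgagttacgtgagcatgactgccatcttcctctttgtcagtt
Khk probe A_55_P2168643: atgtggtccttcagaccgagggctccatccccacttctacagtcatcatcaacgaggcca
Pfkfb1 probe A_55_P2611829: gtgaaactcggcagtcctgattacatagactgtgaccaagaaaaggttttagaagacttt
None of these 3 shares a run of 20 or more bases with another probe on the array, and the same held for 16 of the 18 member probes. The exceptions were 1 probe of Hk1 and 1 of Mlxipl. The Hk1 probe A_55_P2037398, named in the files from transcript J05277, shared 38 bases with a probe for Rpl17-ps8, a ribosomal protein pseudogene, and 30 with a probe for NAP111618-1. Capitals mark the 20 bases common to all 3.
Hk1 run shared with NAP111618-1: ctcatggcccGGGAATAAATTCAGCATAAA
The Mlxipl probe A_55_P2728555, named from transcript BC064053, shared 20 or more bases with 8 probes of other genes, among them Glrx2 and Tia1. Capitals mark 18 bases of the longest run, which 9 probes on the array hold.
Mlxipl run shared with Glrx2: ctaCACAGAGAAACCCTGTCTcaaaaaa
Results of these 2 probes are therefore given beside the other probes of the same gene.

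The deletion itself was read first. Insr was lower in knockouts at every time, by 3.42-fold at ZT8, 3.68-fold at ZT12 and 3.15-fold at ZT16 on its brighter probe (limma adjusted p at most 3.56e-11). On its other probe, A_52_P6490, the falls were 1.93-fold, 2.76-fold and 1.51-fold (adjusted p 0.000362, 6.08e-07 and 0.0171). Of the spots on each array 53.7% to 63.1% were well above background, and no member probe was saturated. The 8 hepatocyte markers searched, albumin and transthyretin among them, were well above background on all 36 arrays. Their summed level (linear signal in units of the 75th percentile) had medians of 4995, 4998 and 5043 in controls and 4145, 4603 and 4539 in knockouts at ZT8, ZT12 and ZT16. The markers did not share 1 direction. Of the 8, 2, 4 and 3 had a limma adjusted p under 0.05 between genotypes, beside 35.4%, 42.2% and 39.9% of all genes. Albumin and transthyretin were lower at each time, Fgb was higher at ZT12 and ZT16, and Hnf4a was higher at ZT12. Knockout ZT8 replicate 3 stood apart from its group. It had the lowest hepatocyte marker sum of all 36 arrays, 3211, and ZT8 results that rest on it are given with and without it. Centring arrays on their median in place of the 75th percentile moved the share of called genes that were higher from 47.2% to 35.8% at ZT8 and from 49.9% to 34.7% at ZT16, with the median over all genes within 0.1 log2 of 0.

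A gene was called when its limma adjusted p, over all genes tested, was at most 0.05. At ZT8 the calls numbered 3 of 8, with 1 higher (Hk2) and 2 lower (Gckr and Khk), where 35.4% of all genes were called, 16.7% higher and 18.7% lower. At ZT12, 5 were called, 1 higher (Hk2) and 4 lower (Gckr, Slc2a2, Khk and Pfkfb1), against 42.2% of all genes, 19.6% higher and 22.6% lower. At ZT16 the same 5 genes were called in the same directions, against 39.9% of all genes, 19.9% higher and 20% lower. The groups did not overlap for 1 gene at ZT8, 3 at ZT12 and 3 at ZT16, against 15.5%, 21.3% and 19.2% of all genes. With so large a background, 3 of 8 is close to the share of all genes and 5 of 8 is 1 or 2 genes above it, so the counts set nothing apart and the values of each gene carry the description. The median difference over the 8 genes was 0.01, -0.33 and -0.20 at the 3 times, beside 0.01, -0.02 and 0.00 over all genes. Hk1 entered these counts and medians through its brightest probe, A_55_P2037398, and which transcript that probe read was not settled. The Hk1 probe A_55_P2027999 was called higher at all 3 times and is not in them. Taken by probe, 7, 8 and 9 of the 16 fitted were called, against 33.7%, 39.3% and 37.9% of all probes.

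**Figure D1:**
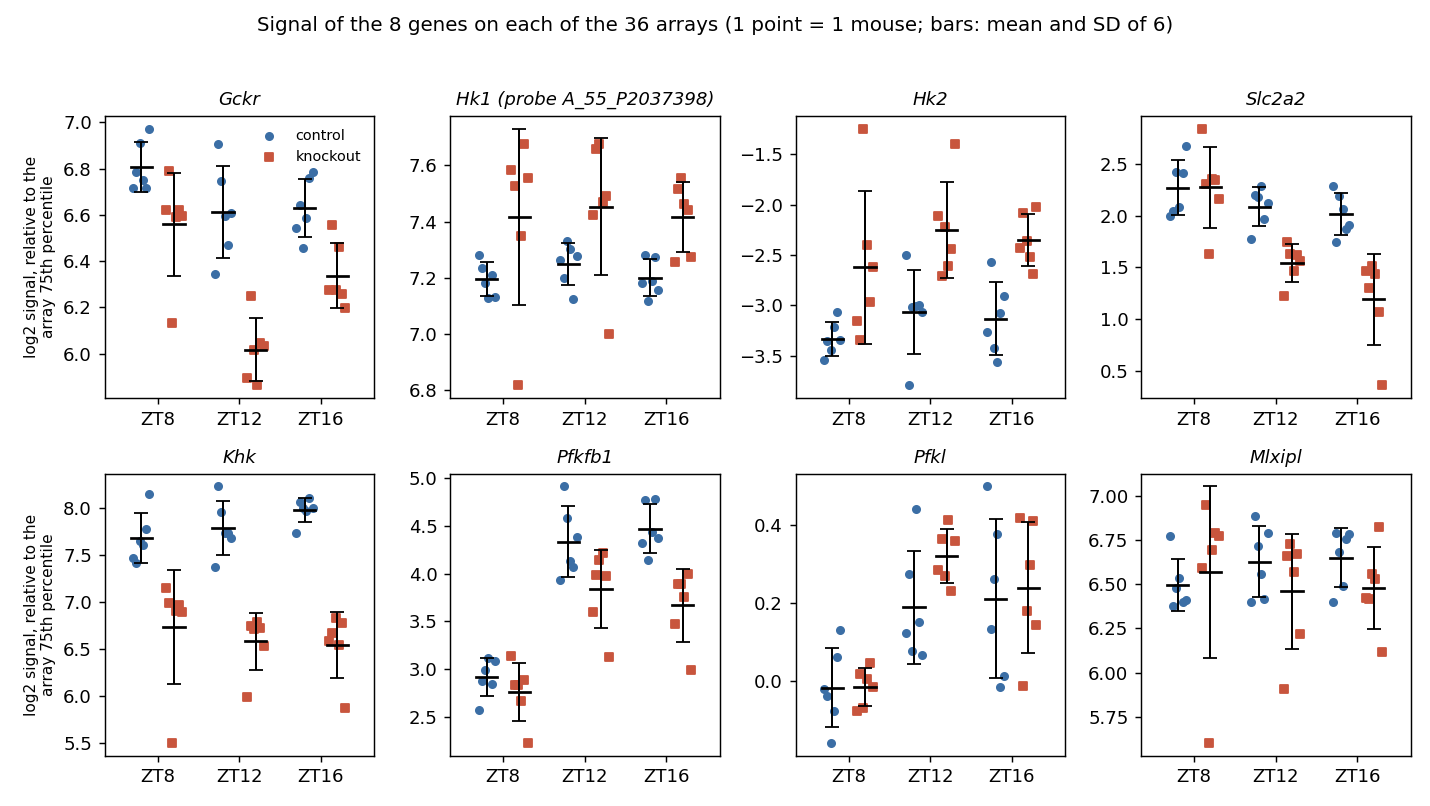
Log2 signal of each of the 8 genes (vertical axes, relative to the array's 75th percentile) against Zeitgeber time, with 1 point per mouse, circles for controls and squares for knockouts, and bars for the mean and SD of 6 mice. Khk squares lie below the circles at all 3 times, Slc2a2 squares separate from the circles at ZT12 and ZT16 only, and knockout ZT8 replicate 3 is the lowest Khk point (5.50) and the highest Hk2 point (-1.25).

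Slc2a2, the gene of the uptake transporter, was read by probe A_52_P409988 across a splice junction at chr3:28625253-28625961 (mm9, plus strand). At ZT8 controls ran from 2.00 to 2.67 with a median of 2.25, and knockouts from 1.63 to 2.84 with a median of 2.33. The knockouts spanned the whole range of the controls at that time. At ZT12 controls ran from 1.77 to 2.29 with a median of 2.15, and knockouts from 1.22 to 1.74 with a median of 1.59. At ZT16 controls ran from 1.75 to 2.29 with a median of 1.99, and knockouts from 0.36 to 1.52 with a median of 1.37. Every knockout at ZT12 and at ZT16 lay below every control of the same time. The lowest array of all 36 was a ZT16 knockout.

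The ZT8 difference of Slc2a2 was 0.00 ± 0.16 (log2, SE), with a 95% interval of -0.33 to 0.33. It was -0.54 ± 0.16 at ZT12 (limma adjusted p 0.00769). At ZT16 it had reached -0.79 ± 0.16 (adjusted p 0.000273). The ZT16 difference was larger than that at ZT8 by -0.79 ± 0.23 (95% interval -1.26 to -0.31), and this change of the genotype effect passed its own test (adjusted p 0.026), where 9.75% of all genes did. That call ended without control ZT8 replicate 4 (-0.72, adjusted p 0.0578), control ZT16 replicate 1 (-0.73, 0.0551) or knockout ZT8 replicate 2 (-0.74, 0.0521), and with arrays centred on their median (0.0525). The arrays were washed in 3 batches, each holding all 6 groups, with 1 to 3 arrays of a group in a batch. Differences within a batch can therefore rest on a single mouse. Within single wash batches the ZT12 difference ran from -0.60 to -0.46 and the ZT16 difference from -0.97 to -0.53.

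Hexokinases other than glucokinase phosphorylate glucose with high affinity and are low in hepatocytes. Hk2, the insulin-responsive form of muscle and fat, was read by probe A_51_P204080 at chr6:82675056-82675115 (mm9, minus strand), a dim probe that was nonetheless well above background on all 36 arrays. At ZT8 controls ran from -3.54 to -3.07 with a median of -3.35, and knockouts from -3.34 to -1.25 with a median of -2.79. At ZT12 controls ran from -3.79 to -2.50 (median -3.01) and knockouts from -2.71 to -1.40 (median -2.33). At ZT16 controls ran from -3.56 to -2.57 (median -3.17) and knockouts from -2.68 to -2.03 (median -2.40). Knockouts were higher on the whole, and at each time the lowest knockouts lay inside the range of the controls.

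Hk2 rose by 0.67 ± 0.24 at ZT8 (log2, SE, with a limma adjusted p of 0.0288), 0.85 ± 0.24 at ZT12 (0.00488) and 0.75 ± 0.24 at ZT16 (0.0128). The ZT8 rise was 0.40 and not called without knockout ZT8 replicate 3 (adjusted p 0.129), and also ended without knockout ZT8 replicate 4 (0.62, 0.0581) or control ZT8 replicate 2 (0.62, 0.0603). The same ZT8 call ended in the authors' deposited table and when only the ZT8 groups were fitted. Over 13 other settings the rise ran from 0.33 to 0.71 at ZT8, 0.38 to 0.87 at ZT12 and 0.34 to 0.78 at ZT16. Hk2 was higher in each wash batch at each time, by 0.53 to 0.92 at ZT8, 0.42 to 2.03 at ZT12 and 0.71 to 0.78 at ZT16. The 2.03 rests on 1 knockout array, ZT12 replicate 6.

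Markers of Kupffer cells, the liver's resident macrophages, moved with Hk2. All 8 of those searched (Clec4f, Vsig4, Cd5l, Adgre1, Marco, Timd4, C1qa and Csf1r) were well above background on every array and none was at 0. Of them 2, 5 and 3 were called higher in knockouts at ZT8, ZT12 and ZT16, beside 16.7%, 19.6% and 19.9% of all genes. Their median differences were 0.62, 0.86 and 0.74. Their summed level ran from 45.7 to 112 in ZT8 controls and 65.4 to 283 in ZT8 knockouts, from 37.1 to 119 and 85.4 to 245 at ZT12, and from 45.1 to 159 and 96.0 to 323 at ZT16. Of 6 neutrophil and monocyte markers, 2, 1 and 3 were called higher at the 3 times, and of 6 endothelial markers 0, 5 and 4. These counts are to be read against the same shares of all genes. The 3 genes whose log2 values over the 36 arrays were closest to those of Hk2 were Klra2 (Pearson r 0.935), Irf8 (0.930) and Clec4n (0.930), all best known from immune cells. The part of these cells in the Hk2 result was not tested.

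**Figure D2:**
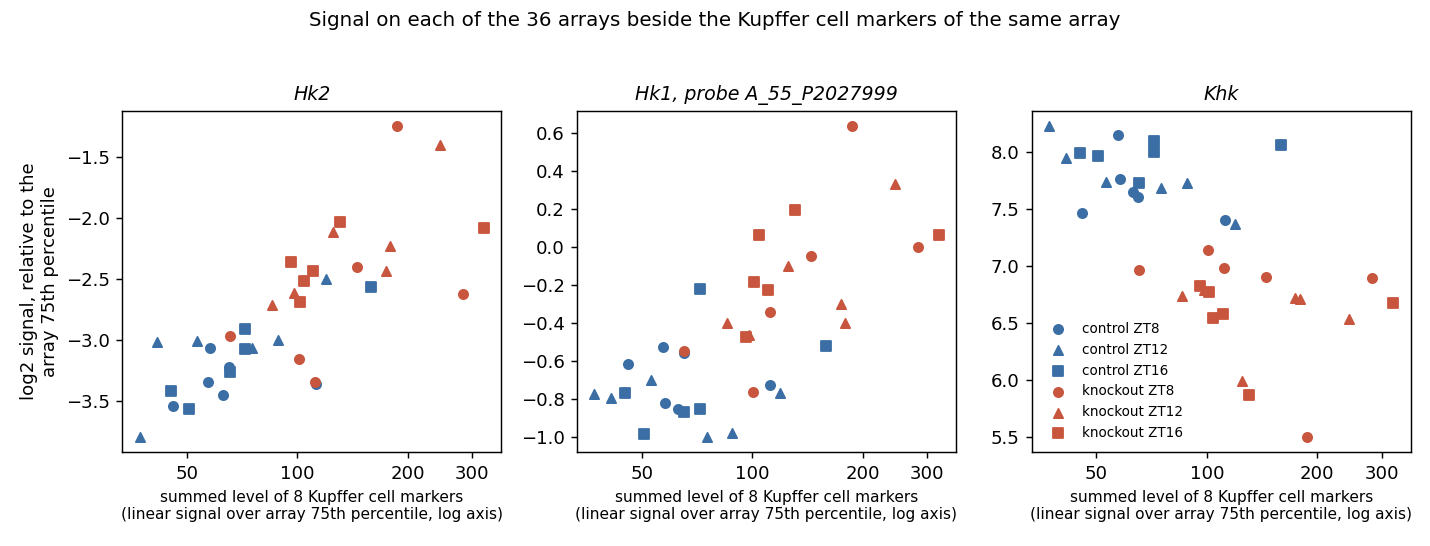
Signal of Hk2, of the Hk1 probe A_55_P2027999 and of Khk (log2, relative to the array's 75th percentile) on each of the 36 arrays against the summed level of the 8 Kupffer cell markers on the same array (log axis), with colours for genotype and symbols for time. Hk2 is higher where the marker sum is larger, with knockout ZT8 replicate 3 (-1.25, marker sum 187) the highest point. Khk is lower in knockouts than in controls. No test is attached to these relations.

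Hk1, the widely expressed hexokinase, had 5 probes, and the 4 that could be fitted did not move together, with r between pairs of -0.378 to 0.0465 over the 36 arrays. The brightest, A_55_P2037398 (chr10:61731230-61731288, mm9, minus strand), is the one with the run shared with Rpl17-ps8 and NAP111618-1. On it controls ran from 7.13 to 7.28 at ZT8, 7.12 to 7.33 at ZT12 and 7.12 to 7.28 at ZT16, a narrow range, and knockouts from 6.82 to 7.68, 7 to 7.68 and 7.26 to 7.56. The differences were 0.23 ± 0.11, 0.20 ± 0.11 and 0.22 ± 0.11 (SE), and none was called (limma adjusted p 0.0939, 0.136 and 0.1002). Without knockout ZT8 replicate 3 all 3 were called, at 0.36 (0.00127), 0.19 (0.0490) and 0.21 (0.0381). Without knockout ZT12 replicate 6 the ZT12 value was 0.31 (0.0141) and the ZT16 value 0.23 (0.0487). The NAP111618-1 probe followed this probe with r 0.982 and the Rpl17-ps8 probe with r 0.823, so which transcript it read was not settled.

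Probe A_55_P2027999, named from the RefSeq transcript NM_001146100 and lying at chr10:61731856-61731915, gave a rise at all 3 times. Controls ran from -0.85 to -0.53 at ZT8, -0.997 to -0.70 at ZT12 and -0.99 to -0.22 at ZT16. Knockouts ran from -0.76 to 0.63, -0.47 to 0.33 and -0.48 to 0.19. Only at ZT12 did the groups lie fully apart. The rises were 0.48 ± 0.16 (SE, limma adjusted p 0.0215), 0.64 ± 0.16 (0.00198) and 0.60 ± 0.16 (0.00375), or 1.39-fold, 1.56-fold and 1.52-fold. At ZT8 the call ended without knockout ZT8 replicate 3 (0.31, 0.0929) or control ZT8 replicate 5 (0.43, 0.0558). Probes A_55_P2718999 and A_55_P2647528 were not called at any time, with differences of -0.35 to 0.16, and A_55_P2744975 was not well above background on any array. The rise of probe A_55_P2027999 stands beside the same rise of Kupffer markers as that of Hk2, and their part in it was not tested.

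Gckr, the inhibitor and nuclear anchor of glucokinase, was read by probe A_51_P198694 at chr5:31629583-31629642 (mm9, plus strand). At ZT8 controls ran from 6.72 to 6.97 with a median of 6.77, and knockouts from 6.13 to 6.79 with a median of 6.61. At ZT12 controls ran from 6.34 to 6.91 with a median of 6.60, and knockouts from 5.86 to 6.25 with a median of 6.02. At ZT16 controls ran from 6.46 to 6.79 with a median of 6.62, and knockouts from 6.199 to 6.56 with a median of 6.28. The knockouts lay fully below the controls at ZT12, whereas the ranges met at the other times. The ZT12 knockouts were on average also lower than the knockouts of ZT8 or ZT16.

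Gckr fell by 0.27 at ZT8 (log2, SE 0.09, limma adjusted p 0.0207), 0.58 at ZT12 (SE 0.09, adjusted p 5.7e-06) and again 0.27 at ZT16 (SE 0.09, adjusted p 0.0186). The change of the genotype effect from ZT8 to ZT12 was -0.31 and did not pass (adjusted p 0.276). The ZT8 call ended without knockout ZT8 replicate 3 (-0.19, adjusted p 0.0811) and when only the ZT8 groups were fitted (0.118), and the ZT16 call ended without control ZT16 replicate 6 (-0.20, 0.0792). In every wash batch the difference was negative, from -0.29 to -0.19 at ZT8, -0.72 to -0.51 at ZT12 and -0.55 to -0.16 at ZT16. The fall of Gckr stands beside the lower hepatocyte marker sums of the knockouts and the rise of Kupffer markers given for Hk2. The part of either in it was not tested.

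Khk, the gene of the fructose kinase, showed the largest fall of the 8 genes on their brightest probes at each time. Probe A_52_P72434 lies at chr5:31233555-31233614 (mm9, plus strand). At ZT8 controls ran from 7.41 to 8.15 with a median of 7.63, and knockouts from 5.50 to 7.14 with a median of 6.93. At ZT12 controls ran from 7.37 to 8.23 (median 7.73) and knockouts from 5.99 to 6.79 (median 6.71). At ZT16 controls ran from 7.73 to 8.10 (median 8.00) and knockouts from 5.87 to 6.82 (median 6.63). No knockout reached the lowest control of its time. In each knockout group 1 array lay far below the other 5.

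Khk fell by 0.96 ± 0.18 at ZT8 (log2, SE, with a limma adjusted p of 0.000132), 1.19 ± 0.18 at ZT12 (5.2e-06) and 1.37 ± 0.18 at ZT16 (5.7e-07). The second probe, A_55_P2168643 at chr5:31229105-31229164, fell by 1.03 ± 0.18, 1.12 ± 0.18 and 1.36 ± 0.18 (adjusted p 6.41e-05, 1.48e-05 and 7.33e-07), and both probes followed each other with r 0.928 over the 36 arrays. On it the groups lay apart at ZT12 and ZT16 and met at ZT8, where the lowest control stood at -1.63 and the highest knockout at -1.38. Without knockout ZT8 replicate 3 the ZT8 falls were 0.74 and 0.90, both still called. The fall of Khk stands beside the same rise of Kupffer markers as that given for Hk2, and their part in it was not tested. The fall was present in each wash batch, at -1.35 to -0.59, -1.42 to -1.09 and -1.65 to -1.19 on the first probe. From ZT8 to ZT16 the genotype effect changed by -0.41, which was not called (adjusted p 0.373). It was -0.66 and called without knockout ZT8 replicate 3 (0.0304).

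**Figure D3:**
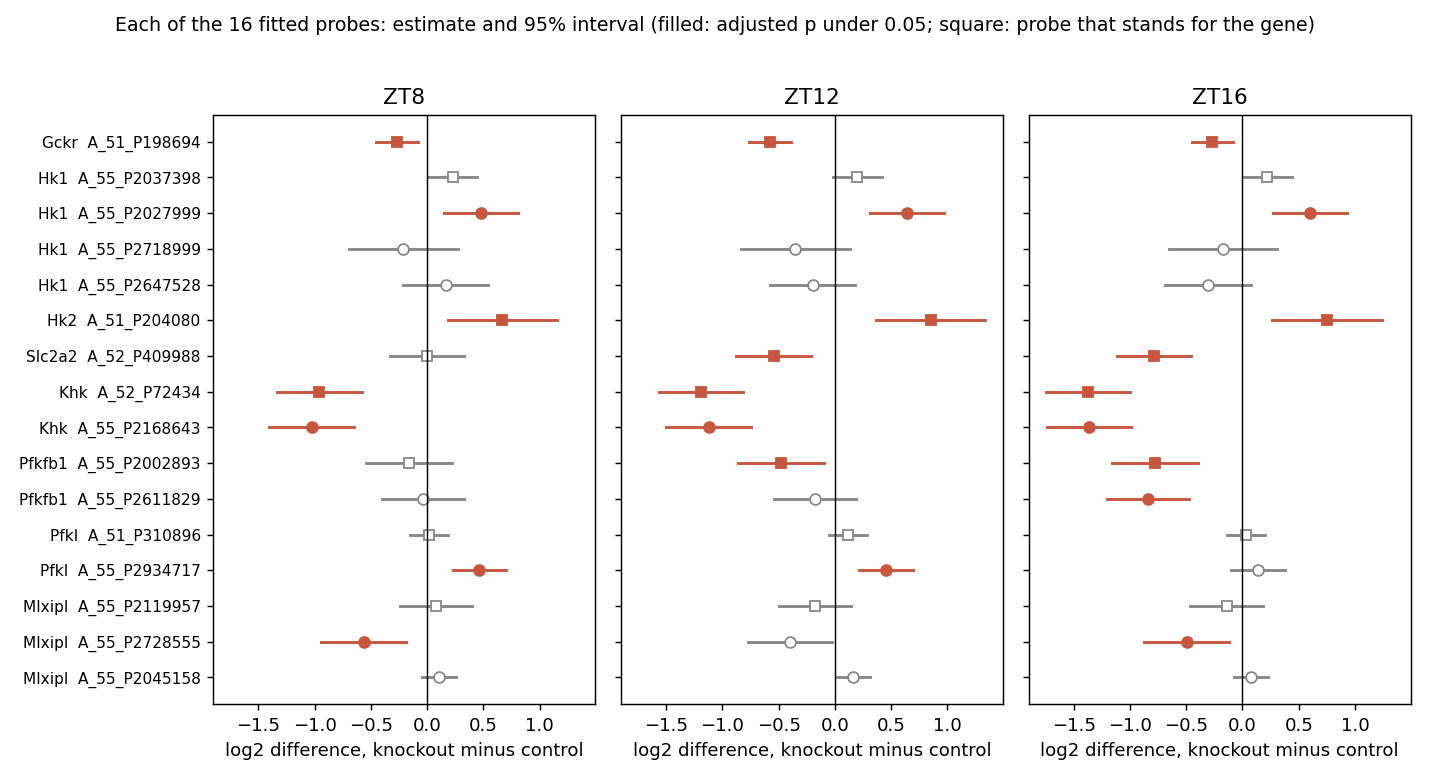
Knockout minus control difference (log2, horizontal axis) of each of the 16 fitted probes of the 8 genes at each time, with 95% intervals from the limma fit, filled where the adjusted p was under 0.05 and square for the probe that stands for its gene. Both Khk probes lie between -0.96 and -1.37 at all 3 times, both Pfkfb1 probes move from near 0 at ZT8 to -0.77 and -0.84 at ZT16, and the probes of Hk1, Pfkl and Mlxipl disagree among themselves.

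Phosphofructokinase comes next in the path. Pfkl was read by probe A_51_P310896 at chr10:77450926-77450985 (mm9, minus strand), with values close to the array's 75th percentile in every group. Controls ran from -0.16 to 0.13 at ZT8, 0.07 to 0.44 at ZT12 and -0.02 to 0.50 at ZT16, and knockouts from -0.08 to 0.05, 0.23 to 0.41 and -0.02 to 0.42. The ranges of the genotypes overlapped at all 3 times. The differences were 0.01 (95% interval -0.15 to 0.18), 0.12 (-0.05 to 0.29) and 0.03 (-0.14 to 0.20), with limma adjusted p of 0.923, 0.251 and 0.82. A shift of more than 0.29 in either direction lay outside all 3 intervals.

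A dimmer probe, A_55_P2934717, named from the clone AK008812 and lying within the same gene's span at chr10:77470357-77470416, was higher in knockouts at ZT8 (0.46 ± 0.12, limma adjusted p 0.00241) and at ZT12 (0.46 ± 0.12, 0.00233), and not at ZT16 (0.14 ± 0.12, 0.374). It did not follow the first probe (r -0.214). The third probe, A_55_P2938364, was well above background on only 2 arrays, both ZT8 controls, and was not fitted.

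Pfkfb1, the liver form of the enzyme that sets fructose 2,6-bisphosphate, was read by 2 probes that followed each other with r 0.944. On probe A_55_P2002893 (chrX:147078320-147078379, mm9, plus strand) ZT8 controls ran from 2.58 to 3.11 with a median of 2.93, and ZT8 knockouts from 2.23 to 3.14 with a median of 2.84. At ZT12 controls ran from 3.93 to 4.91 (median 4.26) and knockouts from 3.13 to 4.22 (median 3.98). At ZT16 controls ran from 4.14 to 4.78 (median 4.40) and knockouts from 2.99 to 4.00 (median 3.83). The genotypes shared their range at ZT8 and ZT12 and lay apart at ZT16.

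The differences of Pfkfb1 were -0.16 ± 0.19 at ZT8 (SE, with a limma adjusted p of 0.543), -0.48 ± 0.19 at ZT12 (0.038) and -0.77 ± 0.19 at ZT16 (0.00138). The ZT12 call was a narrow one. It ended without knockout ZT12 replicate 1 (-0.45, 0.0763) or 6 (-0.28, 0.197) and without control ZT12 replicate 2 (-0.38, 0.104) or 3 (-0.43, 0.0892), and in 7 of the 13 other settings. The second probe, A_55_P2611829 at chrX:147056628-147056687, gave -0.04, -0.17 and -0.84, with only ZT16 called (adjusted p 0.000392). On that probe the change of the genotype effect from ZT8 to ZT16, -0.80, was called, and the call ended in 16 of the 36 fits that left out 1 array (-0.83 to -0.71, adjusted p 0.0516 to 0.0917). These arrays were replicates 1, 2, 3 and 4 of the ZT8 controls, 1, 2, 3 and 5 of the ZT16 controls, 1, 2, 4 and 5 of the ZT8 knockouts and 1, 2, 4 and 6 of the ZT16 knockouts. On the first probe the change was -0.61 and was not called (0.151).

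Mlxipl, the gene of ChREBP, was read by 3 probes. On A_55_P2119957 (chr5:135613705-135613764, mm9, plus strand) controls ran from 6.38 to 6.77 at ZT8, 6.40 to 6.89 at ZT12 and 6.40 to 6.79 at ZT16, and knockouts from 5.60 to 6.95, 5.91 to 6.73 and 6.12 to 6.83. The ranges of the genotypes overlapped at each time. The differences were 0.08 (95% interval -0.24 to 0.40), -0.17 (-0.50 to 0.15) and -0.14 (-0.46 to 0.18), and none was called (limma adjusted p 0.741, 0.395 and 0.505). Without knockout ZT8 replicate 3, the lowest array, the ZT8 difference was 0.26 and not called (0.114).

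The probe of BC064053, which shares its run with 8 other probes, gave lower values in knockouts, by -0.57 ± 0.18 at ZT8 (SE, with a limma adjusted p of 0.018), -0.40 ± 0.18 at ZT12 (0.0875) and -0.50 ± 0.18 at ZT16 (0.0341). The ZT8 call ended without knockout ZT8 replicate 3 (-0.41, 0.0727) and the ZT16 call ended in 7 of the 36 fits without 1 array. At ZT16 it ended without control replicate 2 (-0.45), 5 (-0.49) or 6 (-0.36) and without knockout replicate 1 (-0.49), 2 (-0.499), 3 (-0.47) or 6 (-0.44), with adjusted p of 0.0511 to 0.132. The probes it shares bases with had differences of -0.20 to 0.24. The other RefSeq probe, A_55_P2045158, gave 0.11, 0.16 and 0.07, none of them called. The 3 probes thus gave no common direction for Mlxipl.

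Exact two-sided permutation tests of 6 against 6 mice were run on the brightest probe of each gene at each time, 24 tests in all. They need no model and shuffle mice across wash batches. For Khk at all 3 times, Gckr at ZT12, Slc2a2 at ZT12 and ZT16 and Pfkfb1 at ZT16 the exact p was 0.00217, the smallest that 6 against 6 allows (0.00742 after Benjamini-Hochberg adjustment over the 24). In these comparisons the groups did not overlap, which by itself fixes the exact p at its smallest value. There the test adds nothing to the separation already given. Hk2 gave exact p of 0.0173, 0.00649 and 0.00433 at ZT8, ZT12 and ZT16, and Gckr 0.0108 at ZT8 and at ZT16. Pfkfb1 at ZT12 gave 0.0563, and Hk1 at ZT16 gave 0.0130, or 0.0965 and 0.0260 after adjustment. In both cases the exact test and the limma adjusted p fell on different sides of 0.05. The limma adjustment covers all genes and that of the exact test only 24 tests. Unadjusted, the limma p was 0.0151 for Pfkfb1 and 0.0477 for Hk1.

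Time of day was compared within each genotype. Pfkfb1 had the largest change with time among the 8 genes. In controls it was 2.67-fold higher at ZT12 than at ZT8 (1.42 log2, limma adjusted p 2.76e-06) and 2.88-fold higher at ZT16 than at ZT8 (1.53, 2.3e-07), with no overlap between the times. In knockouts the same comparisons gave 2.14-fold (1.097, 0.000202) and 1.88-fold (0.91, 0.000329). Pfkfb1 therefore rose from ZT8 to the dark phase in both genotypes.

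Slc2a2 changed with time in knockouts, where it was 1.66-fold lower at ZT12 than at ZT8 (limma adjusted p 0.00297) and 2.12-fold lower at ZT16 than at ZT8 (5.32e-06, with no overlap). In controls the ZT16 minus ZT8 value was -0.30 and was not called (0.192). Gckr in knockouts was 1.42-fold lower at ZT12 than at ZT8 (0.000309) and then 1.24-fold higher at ZT16 than at ZT12 (0.0222). The later change was not called without knockout ZT12 replicate 4 (0.27, adjusted p 0.0608) or 6 (0.28, 0.0524) or without knockout ZT16 replicate 2 (0.28, 0.0592). In controls its ZT12 minus ZT8 value was -0.20 and was not called (0.148).

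For Pfkl both fitted probes changed with time in opposite directions. On the brightest probe it was 0.31 higher at ZT12 than at ZT8 in knockouts (limma adjusted p 0.0112), with no overlap, and higher at ZT16 than at ZT8 by 0.23 in controls (0.0371) and 0.24 in knockouts (0.0239). The other probe, A_55_P2934717, was lower at ZT16 than at ZT8, by -0.35 in controls (0.0238) and -0.68 in knockouts (3.69e-05), and in knockouts also lower at ZT16 than at ZT12 (-0.44, 0.0107). Its ZT12 minus ZT8 value in knockouts was -0.24 and was not called (0.208). The mean of both probes gave 0.04 for ZT12 minus ZT8 in knockouts (0.835) and -0.06 and -0.22 for ZT16 minus ZT8, so no direction with time is given for the gene. The first of these calls of the brightest probe also ended in the fit of only the groups compared (0.0556). Its ZT16 minus ZT8 call ended without control ZT8 replicate 1, 2, 3 or 4 or control ZT16 replicate 1, 3 or 4 (0.17 to 0.23), and in knockouts without ZT16 replicate 1, 4 or 5 (0.22). That of the other probe in controls ended without control ZT8 replicate 1 or 2 or control ZT16 replicate 3 or 6 (-0.33 to -0.31).

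In controls 1 of the 8 genes was called between ZT12 and ZT8, none between ZT16 and ZT12 (also 0 at an unadjusted p under 0.05, by limma) and 2 between ZT16 and ZT8, beside 14.8%, 3.62% and 26.6% of all genes. In knockouts 4, 1 and 3 were called, beside 13.2%, 12.6% and 28.9% of all genes. The genotype effect changed past the threshold for 0 genes from ZT8 to ZT12, 0 from ZT12 to ZT16 and 1 (Slc2a2) from ZT8 to ZT16, beside 1.25%, 1.95% and 9.75% of all genes. The F test over all 3 times called 0 of the 8, beside 8.46% of all genes, and 0 of the 16 probes, beside 7.24% of all probes. At an unadjusted limma p under 0.05 these counts of genes were 2, 1, 2 and 2. The smallest F test value was that of Slc2a2 (adjusted p 0.0635). On the brightest probes, then, Slc2a2 alone of the 8 was called for a change of the genotype effect with time, and by the pairwise comparison and not by the F test. The second Pfkfb1 probe, A_55_P2611829, was called in the same pairwise comparison.

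The wider pathway was described by lists of related genes, by counts alone and with the listed members of the set included. All list counts are to be read against the 35.4%, 42.2% and 39.9% of all genes called at ZT8, ZT12 and ZT16. Of the 4 hexokinases other than glucokinase, 1, 2 and 1 were called higher at ZT8, ZT12 and ZT16, and 1, 0 and 0 lower. Hk3, the form of white blood cells, had differences of 0.57 (limma adjusted p 0.159), 0.76 (0.04998) and 0.75 (0.0565), beside the same Kupffer and immune markers as Hk2, whose part was not tested. Hkdc1 was lower at ZT8 (-1.11, 0.0186) and was well above background on 27 arrays only. The list's median was 0.40, 0.48 and 0.48, beside 0.01, -0.02 and 0.00 over all genes. In these counts and medians Hk1 stands for its probe A_55_P2037398, whose transcript was not settled.

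Of 13 sugar transporters 10 could be tested, and 3, 7 and 5 of them were called, so that at ZT8 and ZT16 the share was near the 35.4% and 39.9% of all genes. Of these 2, 3 and 3 were higher in knockouts and 1, 4 and 2 lower, with list medians of -0.11, -0.14 and 0.10. Slc2a9, a urate and sugar transporter, had a pattern like that of Slc2a2, with -0.03, -0.40 (limma adjusted p 0.0129) and -0.57 (0.000691). Slc2a6 was higher at all 3 times, by 1.29, 1.01 and 1.43 (0.00635, 0.0257 and 0.00231). Slc2a3, the high-affinity glucose carrier of neurons and white cells, was higher at ZT12 (1.51, 0.000889) and ZT16 (0.92, 0.037), and was well above background on only 19 of the 36 arrays, so its size is uncertain.

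Of 5 genes of the family that makes or removes fructose 2,6-bisphosphate, 2, 3 and 4 were called. Pfkfb4 was higher at each time (0.59, 0.51 and 0.75, limma adjusted p 0.0108, 0.0224 and 0.00117). Tigar, which removes the metabolite, was lower at each time (-0.49, -0.51 and -0.64, adjusted p 0.00409, 0.00256 and 0.000262). Pfkfb2 was lower at ZT16 alone among the times called (-0.32, 0.0291). Pfkfb1 and its relatives therefore did not share 1 direction.

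Of 16 glycolysis enzymes, 7, 8 and 7 were called, 6, 3 and 3 of them higher and 1, 5 and 4 lower, a share close to that of all genes (35.4%, 42.2% and 39.9%). Pklr, the liver pyruvate kinase, fell most of these (-1.56, -2.42 and -2.46, limma adjusted p 6.86e-06, 2.72e-09 and 1.79e-09). Aldoa, the aldolase of muscle and most other tissues, was higher by 0.67, 0.89 and 0.93 (6.14e-06, 4.07e-08 and 1.87e-08). Gpi1 and Eno1 were higher at ZT8 only (0.59 and 0.56, adjusted p 7.31e-06 and 1.24e-05), and for both the genotype effect differed between ZT8 and ZT16 (adjusted p 0.011 and 0.00251). The list median was 0.12, 0.09 and 0.07.

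Of 9 genes of fructose metabolism, 3, 6 and 6 were called, and 2, 6 and 5 of these were lower. Tkfc, the triokinase that follows Khk and aldolase in fructose breakdown, was -0.15 at ZT8 (limma adjusted p 0.471), -1.16 at ZT12 (1.92e-07) and -1.05 at ZT16 (1.15e-06), and its genotype effect differed between ZT8 and ZT16 (0.00447). Sord, which makes fructose from sorbitol, went from -0.12 at ZT8 (0.422) to -0.34 (0.0163) and -0.65 (3.04e-05). Glyctk, which phosphorylates glycerate, was lower at all 3 times (-0.49, -0.64 and -0.60, adjusted p at most 2.01e-06). Khk was lower already at ZT8, while Tkfc and Sord passed from ZT12 on. The list median was -0.16, -0.43 and -0.38.

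Around ChREBP, 7 genes of the factor, its partners and its regulators had 1, 4 and 1 calls. Mlx, the partner with which ChREBP binds DNA, was lower at all 3 times (-0.76, -0.73 and -0.67, limma adjusted p 2.2e-07, 3.16e-07 and 1.29e-06). Mlxip, the paralog of Mlxipl, was higher at ZT12 (0.56, 0.0352). Nr1h3, which encodes the nuclear receptor LXR alpha, was lower at ZT12 (-0.21, 0.0205), and Hnf4a was higher at ZT12 (0.31, 0.0342).

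Of 15 genes known as ChREBP targets, Khk and Slc2a2 among them, 10, 13 and 12 were called, against 35.4%, 42.2% and 39.9% of all genes. Of these 6, 11 and 10 were lower and 4, 2 and 2 higher, with medians of -0.43, -1.16 and -0.79, where 18.7%, 22.6% and 20% of all genes were lower. Thrsp, a lipogenic gene, changed most (-2.86, -4.46 and -5.08, limma adjusted p 2.96e-08, 3.29e-12 and 2.01e-13). G6pc, the glucose 6-phosphatase that releases glucose and is also on this list, went the other way (0.88, 2.14 and 1.43, adjusted p 0.0317, 3.08e-06 and 0.000681). So did Arrdc4 at each time (0.48, 0.27 and 0.34, adjusted p 0.000132, 0.0201 and 0.00396). Txnip (1.62, 4.45e-05) and Tm6sf2 (0.45, 0.0119) were called higher at ZT8 only. Of 5 genes of glucose return to the blood, 3, 3 and 5 were called, all higher apart from 1 at ZT16. Pck1 rose by 1.39, 1.42 and 1.28 (1.98e-07, 9.54e-08 and 6.14e-07) and Fbp1 by 0.52, 0.28 and 0.28 (8.86e-05, 0.0194 and 0.0233). G6pc3 rose at ZT16 (0.48, 3.17e-05).

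**Figure D4:**
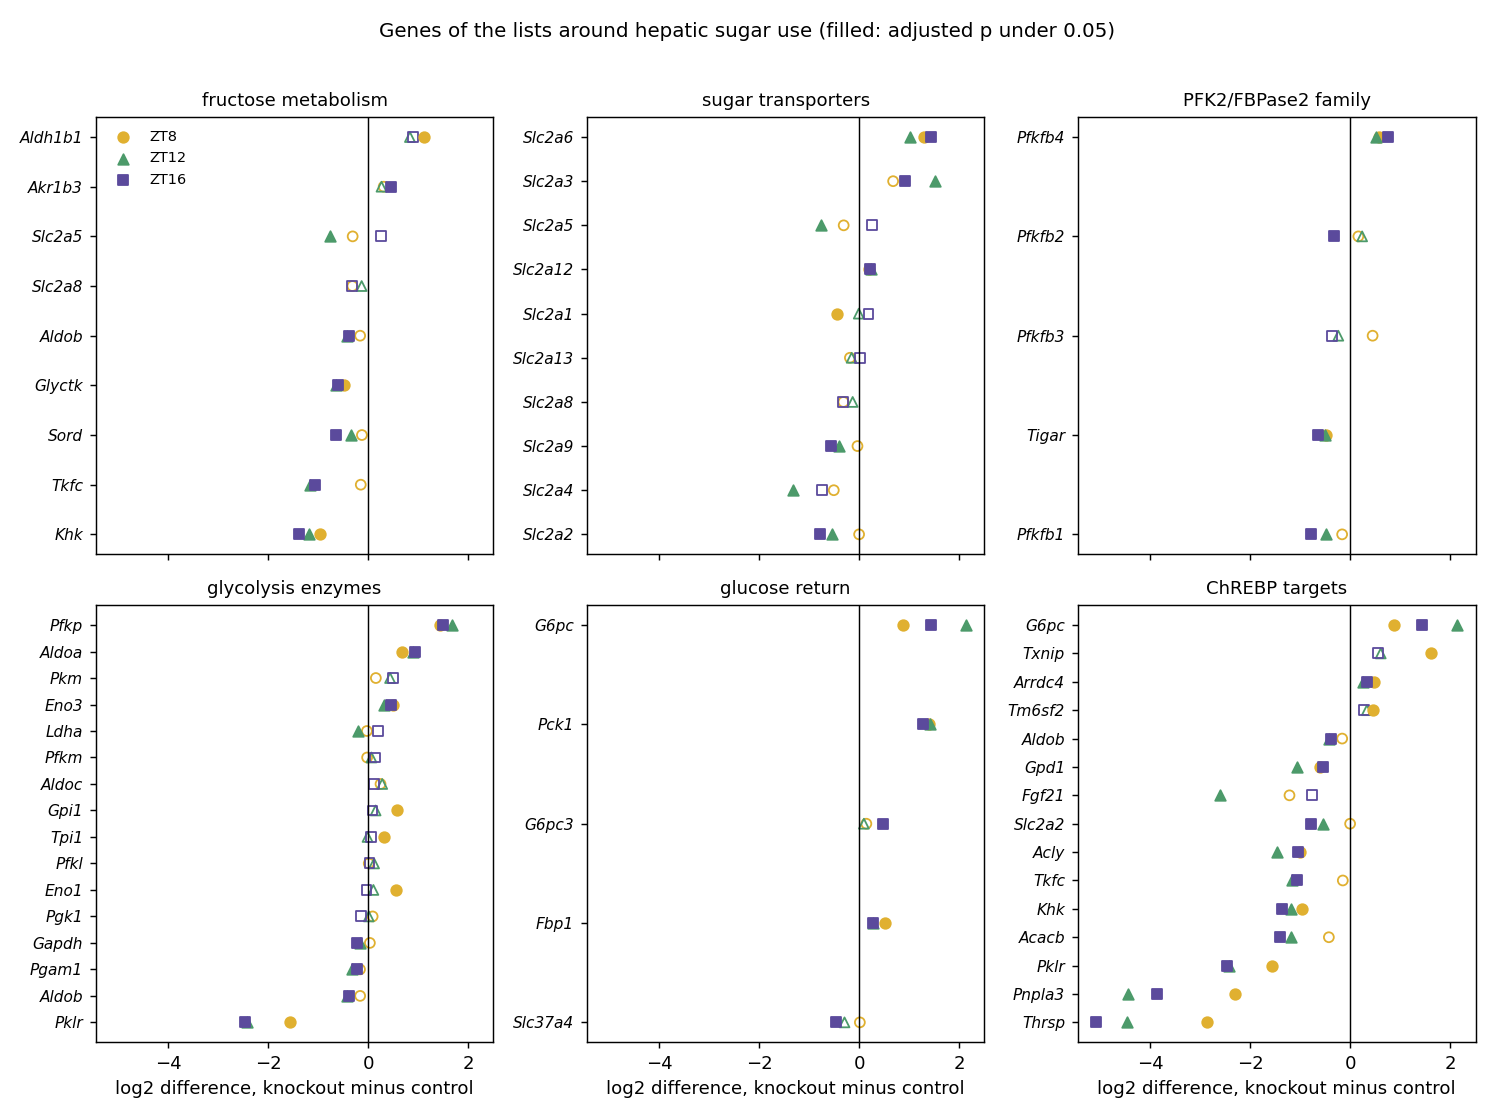
Knockout minus control difference (log2, horizontal axes) of each tested gene of 6 lists at ZT8 (circles), ZT12 (triangles) and ZT16 (squares), filled where the limma adjusted p was under 0.05. ChREBP targets and fructose genes lie mostly below 0 at ZT12 and ZT16, with Thrsp farthest out (-5.08 at ZT16), glucose return genes lie mostly above 0, and glycolysis enzymes lie on both sides.

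Of 17898 genes that every array read well above background, those whose log2 values ran closest to each member over the 36 arrays, with wash batch means removed, were listed without a test, since the arrays share genotype and time. Khk ran closest to C8g (Pearson r 0.957), Dgat2 (0.955) and Hcn3 (0.954). Dgat2, which makes triglyceride, differed between genotypes by -1.09, -1.25 and -1.36 at the 3 times, and Hcn3 by -1.64, -2.46 and -2.52. Gckr ran closest to Gm26588 (0.912), Scrn2 (0.901) and Bco2 (0.898).

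Slc2a2 ran closest to Plpp3 (0.885), Ak4 (0.880) and Xylb (0.879), of which Ak4 differed between genotypes by 0.63, -0.90 and -1.27. Pfkfb1 ran closest to Desi2 (0.897), Wbp1l (0.890) and Cdip1 (0.889). Pfkl and Mlxipl had weaker nearest genes, Zw10, Nacc1 and Tspo at 0.801 to 0.735 and Wasl, Pcx and Prpf4b at 0.793 to 0.788. Hk1 ran closest to NAP111618-1 (0.982), Sprr2a2 and ENSMUST00000079153 (both 0.954), the first of which shares bases with its probe. Among the members, Khk ran with Gckr at r 0.732 and opposite to Hk2 at -0.801, as Gckr did to Hk2 at -0.787.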

How the data were processed

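Liver RNA of 36 mice was hybridised to 1-colour Agilent SurePrint G3 Mouse GE v2 arrays, 1 array per mouse. Per the file headers, spots were read with Agilent Feature Extraction 10.10.1.1, and the deposited processed signal is a fluorescence intensity, background-subtracted and detrended within the array. Flags deposited for each spot are other values, 0 or 1, and mark outliers, saturation and signal well above background. The authors' deposited table holds log2 values, and how it was made is not given in the sources used here; limma is named in the submitters' processing notes, without a version. It was used as an alternative.

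From the log2 processed signal the 75th percentile of that array's non-control spots was subtracted. Spots with the outlier flag were dropped and repeat spots averaged. Probes well above background on at least 6 arrays were kept, and 93 of them without a value on some array were dropped, which left 34678. Each gene took the values of its brightest probe on average, and every other member probe was fitted over all probes. Probe positions are those in the files (mm9), and exon and UTR annotation of that build was not used here.

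Differences were tested with limma 3.58.1 in R 4.3.3 (group means plus wash batch as a fixed effect, 28 residual degrees of freedom, Benjamini-Hochberg adjustment over all genes or all probes, threshold 0.05). The script was tested on simulated data. No 2 arrays held identical values. The labels number the mice 1 to 6 in each group without saying that a number links mice, and same-numbered mice did not deviate together (5 of 18 pairs with r above 0.1), so no pairing was used. P-values measure the spread between mice. Precision is limited by the number of arrays. The alternatives covered background correction, scaling, the authors' table, the dim-probe filter, probe choice, batch and slide terms, array weights, groups fitted, a replicate block and leaving out each array.

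The members, the gene lists and the marker lists were chosen with earlier results of these data known. Named are the 8 genes with all probes, from each list the 4 genes (or fewer) whose p was smallest in a genotype comparison, Insr, the 3 genes most alike to each member, and markers of other cell types that moved with a result. The ChREBP targets called higher and the hepatocyte markers called are named as well.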

Additional observations from a re-analysis of the deposited data

Results flagged for a closer look

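Single arrays far from the rest of their group of 6 were sought by the gap to the nearest array, set against the range of the group (Dixon's 5% limit). Of 96 groups searched, 11 passed, where chance passes about 1 in 20, or 4.8.

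Of the 11, 3 fell on knockout ZT8 replicate 3, where Gckr was 6.131, Khk (probe A_52_P72434) 5.5 and Mlxipl (A_55_P2119957) 5.601, each the lowest of its group. Khk had 1 low array in the other knockout groups too, knockout ZT12 replicate 1 at 5.986 and knockout ZT16 replicate 6 at 5.867, and 1 low control, control ZT16 replicate 1 at 7.727. Hk1 had a low array on probe A_55_P2037398 (knockout ZT12 replicate 6, 7) and on A_55_P2718999 (control ZT8 replicate 6, -4.851, and control ZT12 replicate 2, -4.35). Hk1 probe A_55_P2647528 had a high array in knockout ZT8 replicate 6, at -2.932. Mlxipl probe A_55_P2045158 had a high array in control ZT16 replicate 6, at 1.876.

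The genotype effect differed between ZT16 and ZT8 by limma's test of that difference for Slc2a2 (-0.7853 on the log2 scale) and for the second Pfkfb1 probe, A_55_P2611829 (-0.8027).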

How the results depend on the processing

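Under 13 alternatives, the 8 genes gave 1224 values, of which 1178 kept their direction and side of the threshold, 25 lost a call, 19 gained one and 2 reversed, both for Pfkl between ZT16 and ZT8 under the mean of all probes (-0.06196 in controls and -0.2185 in knockouts). Genes called between ZT16 and ZT8 in controls (2) became 1 under normexp, median centring, no filter, the mean of all probes, slide as a fixed block and a fit of only the groups compared. Between ZT12 and ZT8 in controls (1) they became 2 under quantile normalization, 2 in the authors' table and 3 under array weights. Between ZT16 and ZT12 in knockouts (1) they became 0 under median centring and in the fit of only the groups compared, and 2 under the mean of all probes. The change of the genotype effect from ZT8 to ZT16 (1) became 0 under median centring and 2 under array weights, and the F count (0) became 1 in the authors' table, with only probes above background on all 36 arrays and under array weights. In the fit of only the groups compared, knockout against control at ZT8 gave 1 gene in place of 3 and ZT12 minus ZT8 in knockouts 1 in place of 4. The causes were not tested.

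Leaving out each array in turn gave 2 to 3 genes at ZT8, 4 to 6 at ZT12 and 4 to 6 at ZT16 for knockout against control. For ZT12 minus ZT8, ZT16 minus ZT12 and ZT16 minus ZT8 the ranges were 1 to 1, 0 to 0 and 1 to 3 in controls and 4 to 5, 0 to 1 and 2 to 6 in knockouts. The genotype effect changed for 0 to 0 genes from ZT8 to ZT12, 0 to 0 from ZT12 to ZT16 and 0 to 2 from ZT8 to ZT16, and the F count was 0 to 2. The count of 6 in knockouts was reached without knockout ZT8 replicate 3.

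The labels give all groups the same replicate numbers. With these as a replicate block, knockout against control gave 3, 5 and 5 genes as without it, and no call of a gene changed. Correlations of same-numbered mice ran from -0.293 to 0.244.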
